A study of Mus musculus with 48 samples.

Results

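The response of regulatory T cells (Tregs) to wild-type (WT) IL-2 was measured by RNA sequencing as the difference between 4 Treg libraries from mice given WT IL-2 and 4 from mice given PBS, all from mice that had also received an isotype control antibody. These 8 libraries were chosen by their labels alone, as the Treg samples with isotype antibody and the drug WT or PBS, and are 8 of the 48 libraries of the study and of its 32 Treg libraries. The mice were female C57BL/6, an inbred strain, 8 to 12 weeks old. Every mouse of both groups was injected in the peritoneum with 500 µg of LTF-2, an antibody of the isotype of M5/114 with no target in the mouse, on the day before treatment and again on the day of treatment, so the PBS mice were antibody-treated too. WT mice then received 25 µg of human IL-2 fused to the Fc part of a human IgG1 without effector function, under the skin, and PBS mice received buffer. Spleens were taken on day 4. 2 of the WT libraries, here called 3a and 3b, carry the same mouse label. By the methods of the study each mouse gave a sample of its own and the groups were of equal size, so both were counted, but the labels alone do not tell them apart. Tregs are the cells a CD25 magnetic selection kept and Tcons, used only to check the labels, are the cells that flowed through, so the gate that defines a Treg here used the IL-2 receptor alpha chain itself. Other Treg groups of 4 libraries appear only where they show how this response differs: PBS and WT IL-2 under M5/114, an antibody that blocks MHC class II and with it antigen presentation to CD4 T cells, and the muteins H16R and 3x, variants of human IL-2 made for weaker receptor signaling, under isotype antibody.

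IL-2 binds a receptor of an alpha chain (CD25), a beta chain and the common gamma chain. The kinases JAK1 and JAK3 on the beta and gamma chains then phosphorylate STAT5, which moves to the nucleus, binds DNA as a dimer and drives genes such as Cish, Socs2 and Pim1. Tregs make little IL-2 themselves, carry the high-affinity receptor at rest, and need IL-2 from other T cells to keep Foxp3, the factor that defines them, and to survive in spleen and lymph nodes.

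Levels are given as counts-per-million (CPM), the share of a library's counts that fell on a gene after TMM scaling across the 32 Treg libraries, and the 4 values of a group always stand in the order PBS 1, 2, 3 and 4 or WT 1, 2, 3a and 3b, since 2 WT libraries carry the label 3. A difference is a log2 fold change of WT over PBS with its standard error (SE), so that 1 is a doubling, and a gene is called changed at an adjusted p under 0.1 in the quasi-likelihood test of edgeR, adjusted by the Benjamini-Hochberg method over 12390 protein-coding genes. Levels of different genes are not compared, because CPM does not divide by length. The p-values rest on the spread between libraries within a group, estimated over all 8 Treg groups in 1 fit. With only the 8 libraries of this comparison fitted, 5095 genes were called. Without WT 3a 5966 and without WT 3b 6188 genes were called, against 6468 with both.

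The promoters of 3 genes of the STAT5 pathway are printed to show the sequence a STAT5 dimer recognizes beside genes whose RNA was measured here. Capitals mark each match to the palindrome written as 3 fixed bases, 3 free bases and 3 fixed bases, TTC then any NNN then GAA, which reads the same on both strands. Each line holds 250 bases before and 30 after the transcription start that RefSeq gives on GRCm38.p6, 5′ to 3′ along the gene: Cish, a STAT5-induced inhibitor of cytokine signaling, at chr9:107296409-107296688 on the plus strand, Lta, the cytokine lymphotoxin alpha, at chr17:35205322-35205601 on the minus strand, and Socs3, an inhibitor of JAK kinases, at chr11:117969337-117969616 on the minus strand.
Cish: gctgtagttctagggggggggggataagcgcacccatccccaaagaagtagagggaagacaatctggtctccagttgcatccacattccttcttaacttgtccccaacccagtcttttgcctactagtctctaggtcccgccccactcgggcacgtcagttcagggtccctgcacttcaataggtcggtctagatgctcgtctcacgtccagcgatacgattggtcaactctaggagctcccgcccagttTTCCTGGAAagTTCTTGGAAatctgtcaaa
Lta: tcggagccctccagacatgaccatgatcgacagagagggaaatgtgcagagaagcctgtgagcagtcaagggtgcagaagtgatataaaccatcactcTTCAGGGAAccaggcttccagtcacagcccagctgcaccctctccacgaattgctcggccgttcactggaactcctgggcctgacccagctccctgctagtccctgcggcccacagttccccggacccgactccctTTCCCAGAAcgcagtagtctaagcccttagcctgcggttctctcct
Socs3: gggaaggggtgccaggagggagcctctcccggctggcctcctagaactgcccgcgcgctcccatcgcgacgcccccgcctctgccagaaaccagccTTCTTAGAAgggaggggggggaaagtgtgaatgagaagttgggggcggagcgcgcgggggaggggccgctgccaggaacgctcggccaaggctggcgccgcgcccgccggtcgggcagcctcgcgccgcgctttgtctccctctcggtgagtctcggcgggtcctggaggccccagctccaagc
The Cish window holds TTCCTGGAA right at the start and TTCTTGGAA 12 bases into the transcript, the Lta window holds TTCAGGGAA 152 bases and TTCCCAGAA 16 bases before the start, and the Socs3 window holds TTCTTAGAA 154 bases before it. These 3 genes with a match lay on different sides of the comparison: 4 days after WT IL-2 Lta was lower, Socs3 was higher, and the difference of Cish did not pass the test, as given with their values below. Of 39 genes searched, 28 had a RefSeq window, and Gzmb and Bcl11a were the other two with a match. Il2rb, Socs2, Myc, Ccnd2, Osm, Tmprss13, Il10, Itga7, Scd1 and Prg2 were among those with no window. Over all 32851 windows of 300 bases 8.3% held the palindrome, and among tested genes with a window the share was 8.67% for genes called higher, 8.55% for genes called lower and 7.86% for genes not called. A match is a description of these letters and not of binding.

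The 4 PBS libraries held 18279780.0 to 34581246.0 expected counts and the 4 WT libraries 40999556.0 to 46145562.0. The labelled cell type held: Foxp3 stood between 714 and 1010 CPM in the isotype PBS and WT Treg libraries and between 55.4 and 186 CPM in the 4 Tcon libraries of the same treatments (on a scale set with the Tcon libraries), and the 6 Treg defining markers Foxp3, Il2ra, Ikzf2, Ctla4, Cd3e and Cd4 were all detected in every Treg library. Both PBS libraries at the ends of the numbering stood apart. PBS 1 held more RNA of B cells and myeloid cells: its 10 B cell markers summed to 877 CPM, against 149 to 192 CPM in PBS 2 to 4 and 65.5 to 116 CPM in the WT libraries. PBS 4 held fewer reads on short transcripts. Its median deviation from the mean of the other PBS libraries was -0.31 log2 units in the tenth of genes with the shortest transcripts, median length 1089 bases. In the tenth with the longest, 8292 bases, it was 0.20. The larger shifts that came with leaving out either library are given beside the lists and genes they touch. A bulk library cannot tell fewer cells of a type from less RNA per cell.

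**Figure D1:**
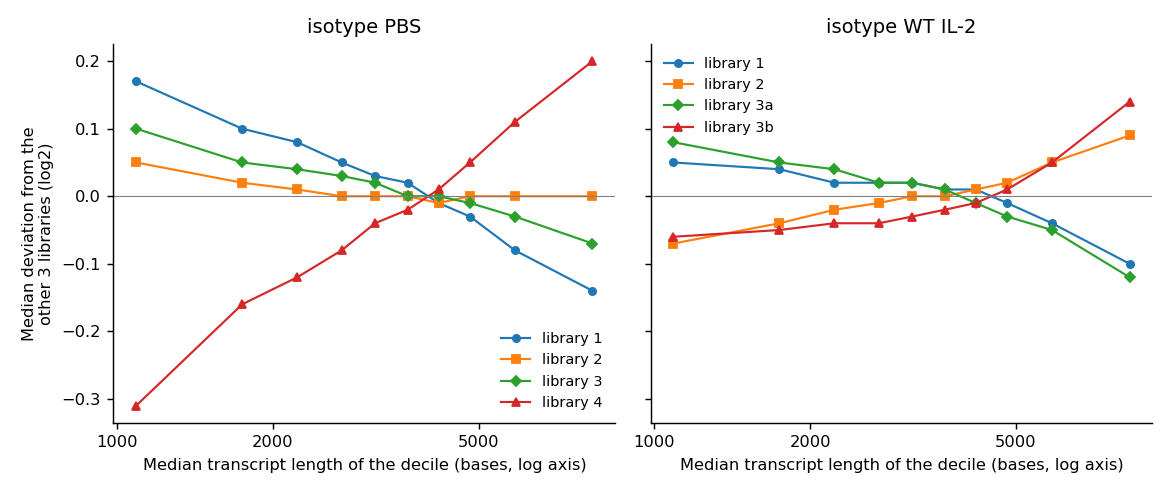
Median log2 difference of each isotype library from the other 3 libraries of its group (vertical axis) against the median transcript length of 10 groups of genes of equal size (horizontal axis, bases, log scale), 1 line per library. PBS 4 rises from -0.31 at 1089 bases to 0.20 at 8292 bases and PBS 1 falls from 0.17 to -0.14, while the 4 WT libraries stay between -0.12 and 0.14.

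WT IL-2 changed the level of 6468 of the 12390 tested genes, 52.2%, and most of these changes were small. Of all tested genes 26.0% rose and 26.2% fell, the median log2 difference over all tested genes was -0.012, the median size of a called change was 0.32 log2 units, and 69.7% of the called changes were under 0.5. A change of 2-fold or more was called for 694 genes, 5.6%, of which 236 rose and 458 fell. In 4156 genes, 33.5%, the ranges of the 4 PBS and the 4 WT libraries did not overlap. These shares are the background against which the counts of each gene group below are read.

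Among genes with a mean above 5 CPM whose groups did not overlap, the largest rises were led by Gcg, which encodes the precursor of glucagon and lies at chr2:62474530-62483650 on GRCm38 like all gene positions here. Gcg stood at 0.857, 0.0971, 0.889 and 0.422 CPM in the PBS libraries and at 8.48, 16.2, 11.4 and 11.1 CPM in the WT libraries, a log2 difference of 4.24 (SE 0.54, adjusted p = 3.91e-07). Nos1 (chr5:117781032-117958840), the neuronal nitric oxide synthase, went from 0.583 to 1.6 CPM across the PBS libraries to 6.44 to 11.6 CPM across the WT libraries, a rise of 3.21 (SE 0.26, adjusted p = 1.11e-10). Both genes were at or under 1.6 CPM with PBS and passed the mean of 5 CPM only through the WT libraries. Gzmb (chr14:56258838-56262260), which encodes the cytotoxic protease granzyme B, stood at 8.77, 8.25, 11.7 and 15.3 CPM with PBS and at 112, 55.3, 106 and 78.9 CPM with WT IL-2, a rise of 3.03 (SE 0.27, adjusted p = 5.52e-10). Its lowest WT library, 2, was still above 3 times the highest PBS library. The serine protease gene Tmprss13 rose by 2.45, the secretory pathway pseudokinase gene Fam20a by 2.23, Frmd5 by 2.20, Il10 by 2.14, the inhibitory receptor gene Havcr2 (TIM-3) by 2.03 and the integrin alpha chain gene Itga7 by 2.02. Itga7, which pairs with the beta 1 chain, went from 3.31 to 4.22 CPM with PBS to 14.2 to 18.1 CPM with WT IL-2 (SE 0.11, adjusted p = 3.55e-14). Like every riser with a PBS mean under 5 CPM, it passed the mean of 5 CPM only through the WT libraries. Fam20a, which also passed that mean only through the WT libraries, rested more on WT 2. It stood there at 14.2 CPM against 5.11 to 7.72 CPM in the other WT libraries and 1.43 to 1.94 CPM with PBS.

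**Figure D2:**
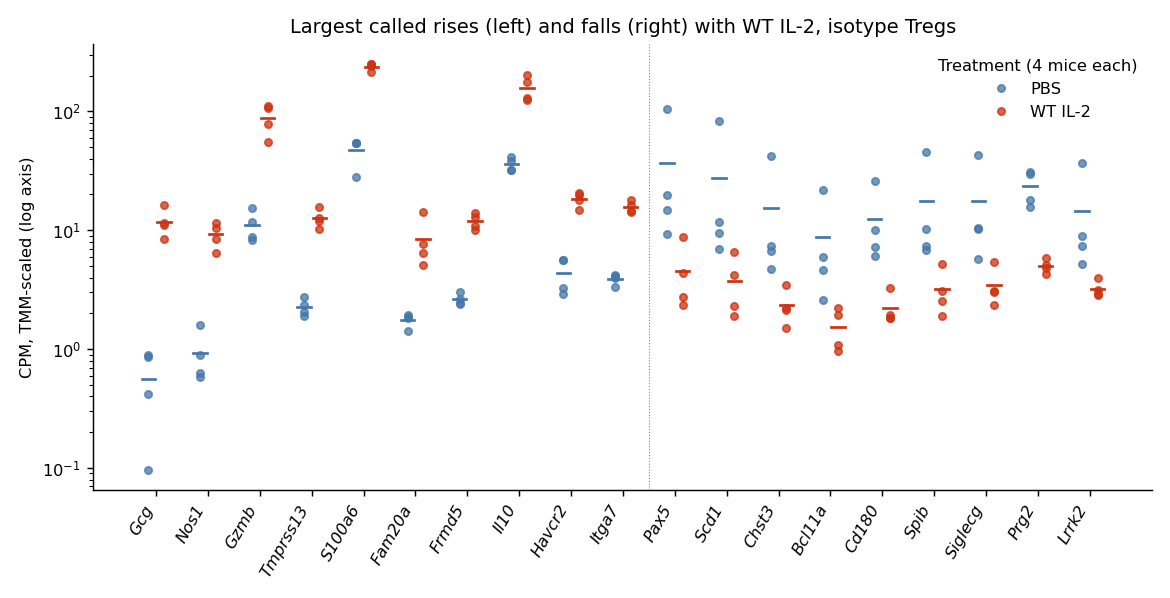
CPM (log axis) of the 10 strongest rises and 9 of the 10 strongest falls in each of the 4 isotype PBS and 4 isotype WT Treg libraries, 1 point per library and a bar at each group mean. For the falls of Pax5 and Scd1 the PBS 1 point, at 104 and 82.8 CPM, lies far above the other PBS points.

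Of the 10 largest falls, 9 were of genes that stood highest in PBS 1, most of them known from B cells. Pax5 (chr4:44524757-44710487), the factor that fixes B cell identity, stood at 104, 14.7, 9.3 and 19.9 CPM with PBS and at 4.4, 2.75, 8.72 and 2.33 CPM with WT IL-2, a fall of 3.04 (SE 0.88, adjusted p = 0.00592). Without PBS 1 the difference was -1.67 and its adjusted p 0.106. Scd1, Chst3, Bcl11a, Cd180, Spib, Siglecg and Lrrk2 had log2 differences between -2.91 and -2.20, each with PBS 1 as the highest library. Without PBS 1 their differences lay between -1.82 and -1.16, Scd1 (-1.32) lost its call, and Chst3, Spib, Siglecg and Lrrk2 lost theirs when PBS 4 was left out as well. The tenth, Prg2 (chr2:84980461-84983632), which encodes the major basic protein of eosinophil granules, did not follow PBS 1: it stood at 29.5, 31.1, 18 and 15.8 CPM with PBS and at 4.29, 5.14, 5.89 and 4.83 CPM with WT IL-2, a fall of 2.23 (SE 0.30, adjusted p = 1.03e-06).

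The chains of the IL-2 receptor were slightly higher after WT IL-2. Of 7 genes of the receptor and its kinases and STAT5 factors, 5 rose and none fell, with a median difference of 0.20, and 3 were called higher without WT 3b or with limma on FPKM values. Il2ra (chr2:11642807-11693193), the alpha chain, stood at 344, 369, 360 and 382 CPM with PBS and at 429, 415, 417 and 463 CPM with WT IL-2, without overlap, but the rise was only 0.24 (SE 0.09, adjusted p = 0.0358) and was no longer called without WT 3b, where the difference was 0.21. Il2rb, the beta chain, rose by 0.20 (adjusted p = 0.0115) and Il2rg, the gamma chain, by 0.27 (adjusted p = 2.35e-05). The largest of the group was Jak3 (chr8:71676296-71690575), the kinase of the gamma chain, from 396, 363, 406 and 362 CPM to 472, 542, 477 and 493 CPM (0.38, SE 0.05, adjusted p = 2.86e-06). The kinase Jak1 and the transcription factor Stat5a, named here after their values were seen because they are the 2 members not called, differed by 0.09 (adjusted p = 0.145) and 0.02 (adjusted p = 0.765), and the groups overlapped for both. Stat5b, likewise named afterwards, rose by 0.08 (adjusted p = 0.0946) but was not called without PBS 1.

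Targets and inhibitors of the pathway did not move together: of 12, 3 rose and 6 fell, with a median of -0.07. Pim1 (chr17:29490753-29496112), a survival kinase, rose from 1200, 1210, 1260 and 1150 CPM to 1840, 1910, 1850 and 1840 CPM (0.63, SE 0.05, adjusted p = 1.65e-10). Socs2 (chr10:95385362-95417180), a feedback inhibitor of cytokine receptors, rose from 31.1, 35.5, 35.7 and 31.5 CPM to 62.8, 59.8, 54.7 and 68.1 CPM (0.88, SE 0.13, adjusted p = 5.99e-06). The groups of both genes were apart. By contrast Cish (chr9:107296026-107302784) stood at 228, 228, 239 and 238 CPM with PBS and at 229, 255, 247 and 275 CPM with WT IL-2, and its difference of 0.11 did not pass the test (SE 0.06, adjusted p = 0.136). WT 1 lay within the PBS range. Socs3, chosen for its promoter after its values were seen, rose by 0.16 (adjusted p = 0.0442) with overlapping groups, and was not called without PBS 1 (0.13, adjusted p = 0.132). Lta (chr17:35203165-35205351) fell from 52, 54.8, 49.7 and 38.1 CPM to 23.6, 23.3, 26.8 and 26.6 CPM (-0.96, SE 0.10, adjusted p = 1.05e-08). Bcl2 (chr1:106538178-106714274), the anti-apoptotic protein that IL-2 is known to sustain, fell from 202, 216, 215 and 228 CPM to 133, 125, 124 and 117 CPM (-0.79, SE 0.09, adjusted p = 1.03e-07). Socs1, the inhibitor of JAK kinases, fell by 0.32 (adjusted p = 0.0029), with its groups overlapping through PBS 4.

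The factors of the Treg lineage were split. Of 12, 5 rose and 4 fell, with a median of 0.04. Foxp3 (chrX:7573644-7595245) rose from 746, 753, 774 and 689 CPM to 966, 986, 1010 and 1020 CPM, with no overlap (0.43, SE 0.06, adjusted p = 5.65e-07). Ikzf2 (chr1:69531214-69687245), which encodes Helios, rose from 527, 666, 595 and 735 CPM to 883, 1080, 867 and 1130 CPM (0.65, SE 0.10, adjusted p = 1.03e-05), and its relative Ikzf4 (Eos) differed by less than 0.01 (adjusted p = 0.991). Bach2 (chr4:32238804-32586108), a repressor that holds T cells in a naive state, fell from 113, 102, 96.8 and 128 CPM to 67.4, 71.4, 63.4 and 72.1 CPM (-0.68, SE 0.11, adjusted p = 1.96e-05). The chromatin organizer Satb1 fell by 0.40 (adjusted p = 0.000481).

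The molecules by which Tregs restrain other cells rose as a group: of 13 tested, 11 rose and none fell, with a median of 0.85. Il10 (chr1:131019845-131024974), the anti-inflammatory cytokine, had 31.9, 32.2, 38.5 and 41.6 CPM with PBS and 175, 129, 203 and 125 CPM with WT IL-2, without overlap. Ctla4, the inhibitory receptor that takes CD80 and CD86 from antigen-presenting cells, went from 834, 944, 1080 and 1190 CPM to 1330, 1660, 1470 and 1380 CPM (0.53, SE 0.10, adjusted p = 7.09e-05). Lag3 (chr6:124904361-124911705), a receptor that binds MHC class II, rose from 83.9, 49.5, 80.8 and 42.3 CPM to 176, 322, 164 and 145 CPM (1.64, SE 0.20, adjusted p = 1.99e-07), with WT 2 as the highest library. Tigit, a receptor for nectin ligands, rose by 1.67 (adjusted p = 5.57e-13), and Entpd1 and Nt5e, the ectoenzymes that turn ATP to adenosine, rose by 0.58 and 0.60. These 3 genes were chosen after their values were seen. Ebi3, the beta chain of IL-35, did not pass the test (-0.02, adjusted p = 0.894), and its partner Il12a was too low to be tested.

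Costimulatory and inhibitory coreceptors went both ways, with 5 of 12 higher and 4 lower and a median of 0.06, or 0.16 without PBS 4. Icos (chr1:60977927-61000320), an inducible costimulator, rose from 146, 170, 205 and 222 CPM to 379, 502, 390 and 398 CPM (1.17, SE 0.11, adjusted p = 3.84e-09). Pdcd1 (PD-1) rose by 0.74 (adjusted p = 5.18e-06) and Havcr2 from 2.9 to 5.6 CPM across the PBS libraries to 14.8 to 20.4 CPM across the WT libraries. Cd28, the main costimulatory receptor, spread from 344 to 596 CPM among the PBS mice, which covered all WT values, and differed by 0.10 (adjusted p = 0.478). Cd160 and Cd226 fell by 0.59 and 0.34, and the groups of both overlapped. Among 12 receptors of the TNF receptor superfamily 5 rose and 1 fell, with a median of 0.04, and without PBS 1 or without WT 3b 2 fell. Tnfrsf1b (TNFR2) went from 376, 339, 408 and 406 CPM to 649, 760, 727 and 698 CPM (0.89, SE 0.08, adjusted p = 5.04e-10), Tnfrsf9 (4-1BB) rose by 0.81, Tnfrsf4 (OX40) by 0.68 and Tnfrsf18 (GITR) by 0.58, and Cd27, named after its value was seen as the remaining riser, by 0.65. The faller was Tnfrsf1a (TNFR1), by 0.30 (adjusted p = 0.00147).

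Regulators of the effector state were more often higher, with 8 of 15 up and 3 down and a median of 0.20. Prdm1 (chr10:44437177-44528501), which encodes BLIMP-1, rose from 36.8, 33, 33.8 and 32.2 CPM to 65.8, 86.4, 69.5 and 79.1 CPM (1.14, SE 0.09, adjusted p = 6.17e-11). Pparg, the factor of fat tissue Tregs, rose from 1.8 to 2.49 CPM to 4.48 to 7.05 CPM (1.38, adjusted p = 0.000195), and Batf by 0.55 (adjusted p = 4.4e-06). Irf4 passed the threshold only narrowly (0.23, adjusted p = 0.0961) and lost its call when any single library except PBS 1 or WT 1 was left out, with differences of 0.17 to 0.24 (PBS 2, 3 and 4, WT 2, 3a and 3b). Bcl6, the factor of follicular T cells, fell by 0.38 and Id3 by 0.24. Of 11 genes known from Tregs of non-lymphoid tissues 7 rose and 3 fell, with a median of 0.34 that was 0.18 without PBS 1 and 0.58 without PBS 4. Il1rl1 (chr1:40429570-40465415), the IL-33 receptor ST2, went from 17.7, 26, 21.3 and 27.9 CPM to 83.9, 73.4, 78.6 and 92 CPM (1.84, SE 0.12, adjusted p = 4.3e-12). Klrg1, an inhibitory receptor of terminally differentiated cells, rose from 42.8, 47.4, 39 and 45.7 CPM to 165, 77.9, 195 and 156 CPM (1.77, SE 0.18, adjusted p = 1.04e-08), with WT 2 as the lowest WT library. Il9r rose by 0.92. Cd83, which keeps MHC class II and CD86 on the surface, fell from 262, 251, 300 and 335 CPM to 135, 173, 207 and 208 CPM (-0.66, SE 0.16, adjusted p = 0.00126).

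Receptors for homing changed in opposite directions. Of 15 chemokine and related receptors 8 rose and 3 fell, with a median of 0.13 that was 0.43 without PBS 1. Ccr2 (chr9:124101950-124113557), the receptor for CCL2, rose from 18.7, 30.6, 23.3 and 28.1 CPM to 87, 68.3, 73.8 and 77.2 CPM (1.62, SE 0.14, adjusted p = 3.2e-10). Ccr4 rose by 1.28 and Ccr8, a receptor of skin and tumor Tregs, by 0.89. Ccr7 (chr11:99144196-99155077), which guides T cells into lymph nodes, fell from 498, 391, 499 and 495 CPM to 300, 292, 307 and 227 CPM (-0.74, SE 0.13, adjusted p = 2.63e-05). Ccr9, the receptor for small intestine, fell by 0.95 and Ccr6 by 0.87. None of these 6 receptors had overlapping groups. Among 14 integrins and adhesion molecules 9 rose and 2 fell, with a median of 0.39, and none fell without WT 1 or without WT 3a. Itgae (chr11:73090583-73147446), the alpha chain of the E-cadherin receptor CD103, rose from 87.7, 89.9, 89.1 and 101 CPM to 226, 222, 216 and 211 CPM (1.25, SE 0.08, adjusted p = 3.37e-12), Itgb1 rose by 0.81 and Itgb7, the partner of Itgae, by 0.54. Vcam1 was called lower through PBS 1 alone, at 18.6 CPM against 1.21 to 1.9 CPM in the other PBS libraries, and without PBS 1 it differed by -0.31 (adjusted p = 0.869).

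Genes of the naive, recirculating state were lower more often than higher: of 14 tested 1 rose and 8 fell, with a median of -0.30, and without PBS 4 2 rose. Igfbp4 (chr11:99041244-99054392), a marker of naive CD4 T cells, fell from 48.2, 54.5, 53 and 49.9 CPM to 25.3, 21.3, 20.8 and 17 CPM (-1.28, SE 0.15, adjusted p = 1.25e-07), besides Ccr7, Bach2 and Satb1 above. The member that rose was S1pr1, the receptor T cells use to leave lymphoid organs (0.30, adjusted p = 0.00171). Il7r, the receptor for IL-7, did not pass the test (0.15, adjusted p = 0.306).

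Components of the T cell receptor (TCR) complex and its first kinases were higher. Of 16 genes of the complex and proximal signaling 13 rose and 1 fell, with a median of 0.23, and 12 of the 16 had groups without overlap. Cd3d (chr9:44981786-44987339) rose from 273, 252, 278 and 202 CPM to 394, 391, 399 and 354 CPM (0.61, SE 0.07, adjusted p = 1.2e-07). Cd3g rose by 0.60 and Cd3e by 0.55, and Zap70 (chr1:36761798-36782818), the kinase that docks on the phosphorylated complex, from 257, 238, 267 and 233 CPM to 313, 339, 324 and 314 CPM (0.37, SE 0.06, adjusted p = 6.61e-06). The adaptor gene Lcp2 (SLP-76) rose by 0.20 and the kinase gene Lck by 0.18. Of 15 calcium and NFAT genes 11 rose and 1 fell, with a median of 0.21. Without PBS 1, with total counts or with the length trend removed 2 fell. The store-operated channel gene Orai1 rose by 0.59, Nfatc1 by 0.33 and the calcium sensor gene Stim1 by 0.30, and its relative Stim2 did not pass the test (0.03, adjusted p = 0.715). The member that fell, the calcineurin subunit gene Ppp3cb, did so by 0.19 (adjusted p = 0.0121), but without PBS 4 its difference was -0.10 and was not called (adjusted p = 0.142).

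Of 15 genes induced by TCR signals 2 rose and 5 fell, with a median of -0.04 that was 0.05 without PBS 4 and 0.00 without PBS 1 and 4. The orphan receptor genes Nr4a1, Nr4a3 and Nr4a2 differed by -0.04, -0.15 and 0.09 (adjusted p = 0.811, 0.433 and 0.693), and their groups overlapped. Dusp5, a phosphatase for ERK in the nucleus, rose by 0.47 (adjusted p = 2.44e-06) and Dusp6, its counterpart in the cytoplasm, fell from 121, 129, 127 and 144 CPM to 91.3, 90.1, 98.3 and 93.5 CPM (-0.48, SE 0.08, adjusted p = 2.63e-05). Cd69, an early activation marker, rose by 0.21 but not without PBS 1 (0.14, adjusted p = 0.136), and by 0.32 without PBS 4. Of 10 genes of the AP-1 family 6 fell and none rose, with a median of -0.26. Atf3 (chr1:191170296-191218039) fell from 129, 128, 119 and 144 CPM to 54.8, 68, 78.9 and 86.6 CPM (-0.85, SE 0.19, adjusted p = 0.000606) and Fosb from 2150, 2510, 2560 and 2480 CPM to 1460, 1540, 1730 and 1870 CPM (-0.55, SE 0.12, adjusted p = 0.000324), while Fos did not pass the test (0.17, adjusted p = 0.101). Of 15 NF-kB subunits and inhibitors 5 rose and 3 fell, all by 0.33 or less, with a median of 0.05, with total counts 4 rose and 4 fell, and without WT 2 5 fell. Nfkbia, the inhibitor IkB-alpha, rose from 986 to 1060 CPM to 1210 to 1360 CPM (0.33, adjusted p = 7.61e-06), and Map3k14, the kinase NIK of the alternative pathway, fell by 0.16.

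Genes of mitosis were mostly higher, and genes of DNA replication went both ways. Of 21 mitotic genes 18 rose and none fell, with a median of 0.49. Mki67 (chr7:135689784-135716361), which encodes the Ki-67 protein of cycling cells, rose from 162, 134, 133 and 147 CPM to 262, 202, 207 and 302 CPM (0.76, SE 0.14, adjusted p = 5.25e-05). Birc5 (survivin) rose by 0.71, Ccnb1 (cyclin B1) by 0.64 and Ccnb2 by 0.60, the last with overlapping groups. The groups did not overlap for 7 of the 21. WT 2 was the lowest WT library for 21 of them and PBS 1 the highest PBS library for 19. Of 26 replication genes 3 rose and 7 fell, with a median of -0.10, and without PBS 1 the counts turned to 5 and 3, with a median of -0.01. Without PBS 2 or without PBS 3 1 rose, and 3 or 4 fell without WT 2, WT 3a or PBS 3. Mcm6, a subunit of the replicative helicase, rose from 204, 186, 196 and 203 CPM to 253, 302, 237 and 254 CPM (0.40, SE 0.07, adjusted p = 2.67e-05), while Mcm2, of the same helicase, fell by 0.24 (adjusted p = 0.00712) and Mcm7 by 0.30. Of 15 G1 cyclins and inhibitors of cyclin-dependent kinases 7 rose and 3 fell, with a median of 0.17. Cdkn2c (chr4:109660876-109667189), the inhibitor p18, rose from 12.6, 12, 11.4 and 10.8 CPM to 31.2, 23.6, 27.4 and 26.6 CPM (1.21, SE 0.11, adjusted p = 1.53e-09) and E2f2 by 0.73, while Ccnd1 fell by 1.18, or 0.82 without PBS 1, its highest PBS library at 8.06 CPM, and Cdk4 by 0.21. Ccnd2, the D cyclin that IL-2 is known to induce, did not pass the test (0.05, adjusted p = 0.535).

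Genes of ribosome biogenesis fell nearly throughout. Of 26 genes 25 fell and none rose, with a median of -0.34, and 18 had groups without overlap. Nop56 (chr2:130274430-130279313), of the particle that methylates ribosomal RNA, fell from 158, 150, 158 and 145 CPM to 108, 111, 109 and 116 CPM (-0.46, SE 0.04, adjusted p = 4.62e-10). Utp20 fell by 0.51 (adjusted p = 0.000208), Wdr75 by 0.33, Nol11 by 0.25 and the RNA helicase gene Ddx21 by 0.14, or 0.09 without PBS 4. Between 22 and 26 of the 26 fell, and none rose, without PBS 1, without PBS 4, without both, with the length trend removed, with total counts in place of TMM or with the 8 libraries fitted alone.

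**Figure D3:**
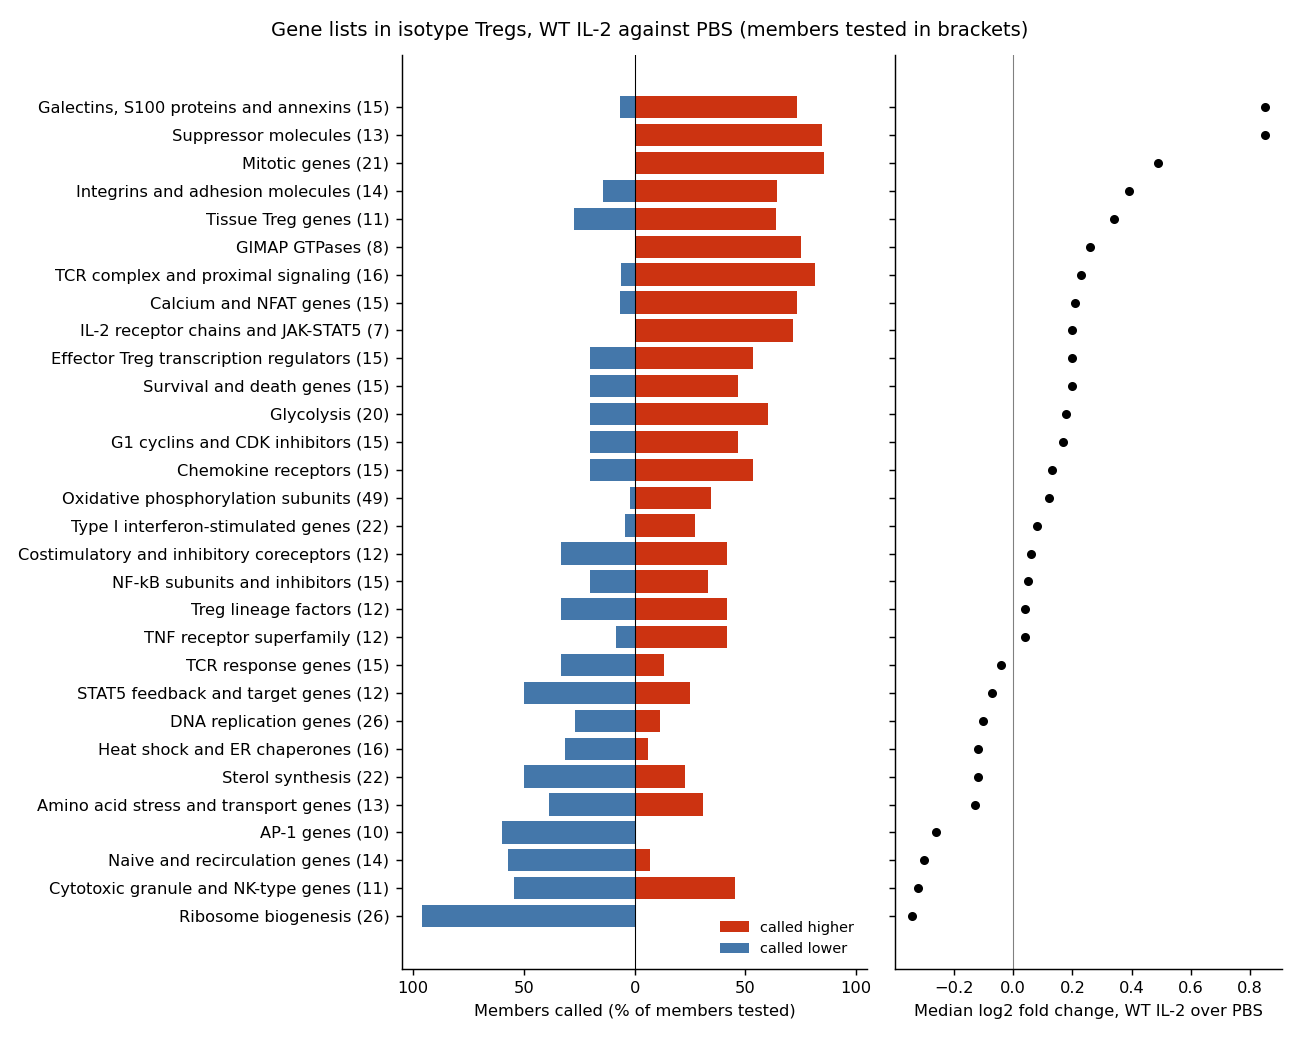
Share of the tested members of each of 30 pathway lists called higher and lower in isotype WT against PBS Tregs (left, percent) and the median log2 difference of the list (right). The suppressor molecules and the galectins, S100 proteins and annexins have the highest medians, both 0.85, and ribosome biogenesis the lowest, -0.34.

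Subunits of oxidative phosphorylation moved little, and their count depended on single libraries. Of 49, 17 rose and 1 fell, with a median of 0.12, or 0.03 without PBS 4. Without PBS 4 the counts were 6 and 1, without PBS 1 23 and 1, 10 and 11 rose without WT 1 and without WT 3a, with the 8 libraries fitted alone 5 and 1, and with the length trend removed 16 and 7. Of the 49 transcripts 43 lie in the 3 shortest of the 10 length groups, where PBS 4 was low: Cox5a, a subunit of cytochrome c oxidase, stood at 59.7, 51.4, 51.3 and 34.1 CPM with PBS and at 69.6, 62, 64.5 and 62.9 CPM with WT IL-2 (0.39, SE 0.10, adjusted p = 0.00197). Of 20 genes of glycolysis 12 rose and 4 fell, with a median of 0.18. Slc16a3 (chr11:120948480-120960868), the exporter of lactate, rose from 7.89, 6.6, 9.21 and 6.07 CPM to 17.5, 25, 16.3 and 17 CPM (1.34, SE 0.15, adjusted p = 5.05e-08), the aldolase gene Aldoc rose by 1.25, the lactate dehydrogenase gene Ldha by 0.41 and the glucose transporter gene Slc2a1 by 0.18, while Hk2, the hexokinase induced by activation, fell by 0.42 (adjusted p = 0.000462), or 0.35 without PBS 1.

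Of 22 genes of sterol synthesis and uptake 5 rose and 11 fell, with a median of -0.12. Without PBS 1 3 rose and 11 fell, with a median of -0.16, without PBS 2 7 fell, and with total counts or limma on FPKM values 3 rose. The isomerase gene Idi1 fell by 0.49. Ebp, another sterol pathway isomerase, rose from 26.2 to 35.5 CPM to 49.8 to 57.7 CPM (0.73, adjusted p = 1.38e-07). Of 13 genes of amino acid supply and stress 4 rose and 5 fell, with a median of -0.13, and without PBS 1 4 rose and 3 fell. The subunit gene Slc7a5 of the large amino acid transporter fell by 0.47 (adjusted p = 1.33e-05), the serine pathway gene Shmt2 by 0.31 and the stress factor gene Atf4 by 0.13, and Sesn2, an inhibitor of mTORC1, rose by 0.44 (adjusted p = 0.000188). Of 16 chaperones 1 rose and 5 fell, with a median of -0.12, and with total counts none rose and 8 fell. Without WT 1 3 fell, and without WT 3b 8. Hspd1, the mitochondrial chaperone, fell by 0.34 (adjusted p = 0.000112).

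Galectins, which bind sugars, and the calcium-binding S100 proteins and annexins had the same median as the suppressor molecules, the highest among the 31 pathway lists. Of 15 galectins, S100 proteins and annexins 11 rose and 1 fell, with a median of 0.85. S100a6 (chr3:90612882-90624181) rose from 54.2, 54.5, 54.5 and 27.8 CPM to 248, 239, 249 and 214 CPM (2.31, SE 0.16, adjusted p = 9.17e-12). S100a4 rose from 84.5, 111, 84.2 and 61.8 CPM to 302, 253, 302 and 270 CPM (1.72, SE 0.12, adjusted p = 6.85e-12), and Lgals1, which encodes the secreted lectin galectin-1, by 1.29. PBS 4 was the lowest library of all 3, whose transcripts are short, and without it the list still had 12 members up and 1 down. Anxa1 was the member that fell, from 13.4 to 17.8 CPM to 7.1 to 12.5 CPM (-0.60, adjusted p = 0.00616). Of 8 GIMAP GTPases 6 rose and none fell, with a median of 0.26, led by Gimap7 (1.09, adjusted p = 2.54e-09) and Gimap4 (0.62, adjusted p = 4.7e-07).

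Survival and death genes did not point one way, with 7 of 15 higher and 3 lower and a median of 0.20, or 0.12 without PBS 4. Bcl2l11, which encodes the pro-apoptotic BIM, rose from 45.9, 46.5, 44.3 and 50.9 CPM to 74.4, 72.9, 68.2 and 70.6 CPM (0.61, SE 0.05, adjusted p = 5.96e-10). Beside Bcl2, the anti-apoptotic Mcl1 fell by 0.23 (adjusted p = 1.48e-05). Of 11 genes of cytotoxic granules and NK-type receptors 5 rose and 6 fell, with a median of -0.32: Gzma rose by 1.08 with overlapping groups, while Prf1, which encodes the pore-forming perforin, stood at 6.63, 5.05, 7.4 and 6.92 CPM with PBS and at 5.56, 4.1, 5.43 and 3.61 CPM with WT IL-2, a fall of 0.48 (adjusted p = 0.0381) that was not called without PBS 3 (-0.41) or WT 3b (-0.37). Klrc1 and Klrd1, the chains of the NKG2A receptor, fell by 1.08 and 0.87. Of 22 genes induced by type I interferon 6 rose and 1 fell, with a median of 0.08. Without PBS 1 4 rose and 1 fell, and without PBS 4 5 rose and 2 fell. Oas1a rose by 1.01 (adjusted p = 2.54e-09) and Isg20 by 0.45, Oasl2 fell by 0.65, and Irf7, Isg15 and Ifit1 did not pass the test (adjusted p = 0.194, 0.32 and 0.157).

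Most markers of B cells, plasma cells and myeloid cells, and 4 of 8 of CD8 T and NK cells, were lower in the WT libraries. For B and myeloid cells much of that difference came with PBS 1. All 9 tested B cell markers fell, with a median of -2.18. Without PBS 1, 5 of them were called, with a median of -1.28, and without PBS 1 and PBS 4, 3. Of 10 myeloid and dendritic cell markers 7 fell, with a median of -1.83, against 4 that fell and 1 that rose without PBS 1, with a median of -1.07, and of 4 neutrophil markers 2 fell, with a median of -2.42, against none and -0.84 without PBS 1. The plasma cell marker Jchain (chr5:88519809-88527891), the joining chain of secreted antibody, did not depend on that library: it stood at 1690, 1730, 1640 and 1410 CPM with PBS and at 580, 622, 632 and 709 CPM with WT IL-2 (-1.35, SE 0.31, adjusted p = 0.00087). Of 5 plasma cell markers 4 fell, and 2 without PBS 1, with medians of -0.70 and -0.65, and the 5 summed to 1530 to 1860 CPM with PBS and to 640 to 775 CPM with WT IL-2. Of 8 markers of CD8 T cells and NK cells 4 fell, with a median of -0.79, among them the NK cell factor Eomes (-1.30, adjusted p = 4.53e-06) and the NK cell receptor Ncr1 (-0.85, adjusted p = 0.00124), while Cd8a and Cd8b1 did not pass the test (adjusted p = 0.411 and 0.27). Of 5 erythroid markers 1 rose, with a median of 1.06: Slc4a1, which was at or below 0.2 CPM with PBS and between 0.172 and 1.78 CPM with WT IL-2. Of 8 genes of conventional CD4 T cells 2 rose, with a median of 0.00: Il4, from 0.943 to 2.02 CPM to 2.37 to 4.25 CPM (1.17, adjusted p = 0.00207), and Il21, which stood at 13.3 CPM in WT 2 and between 2.25 and 4.7 CPM in the other WT libraries and was not called without WT 2 (0.16), nor without PBS 1, 2 or 4 (0.85 to 0.95). All 6 Treg defining markers rose, with a median of 0.49. The part of these other cells in the rises and falls named above, and in the differences between antibody arms below, was not tested.

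**Figure D4:**
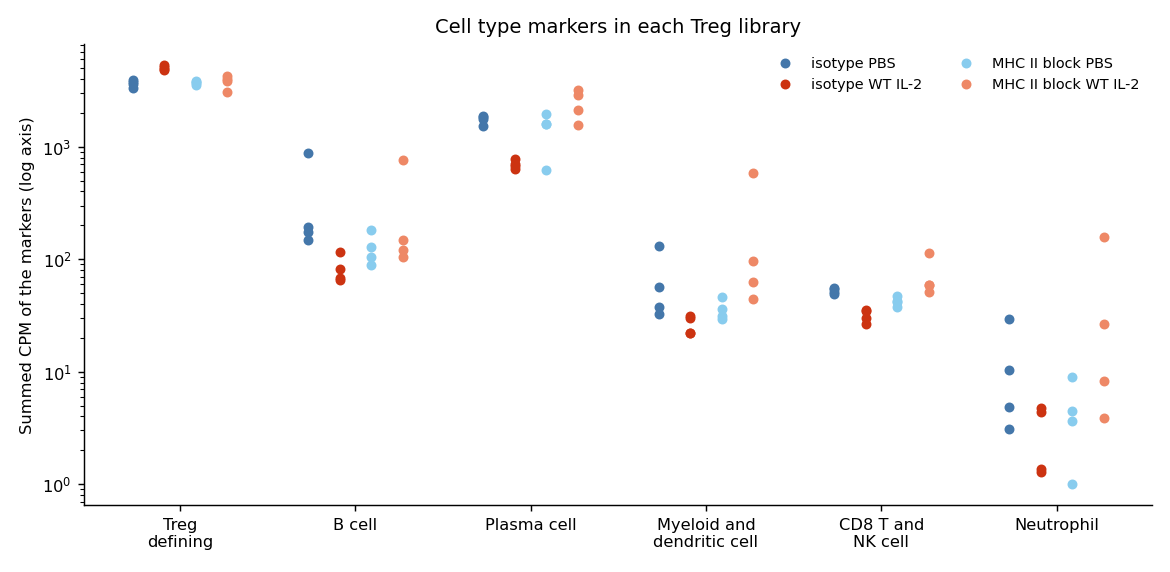
Summed CPM (log axis, scaled together with the Tcon libraries) of 6 lists of marker genes in each library of the isotype and MHC II block Tregs with PBS or WT IL-2, 1 point per library. The B cell sum is highest in isotype PBS 1, 877 CPM, and in MHC II block WT 1, 761 CPM, and the plasma cell sum lies between 640 and 775 CPM in the isotype WT libraries and between 1570 and 3220 CPM in the MHC II block WT libraries.

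Whether the response depended on antigen presentation was asked with the interaction of WT IL-2 and antibody, the difference between the response under isotype antibody and that under MHC II block. The 2 arms share no library. The response differed for 2434 genes, 19.6% of those tested: it was more positive under isotype antibody for 989 and less positive for 1445. Of 16 TCR complex genes 12 responded more under isotype antibody and 1 less, and 10 and 1 without MHC II block WT 1. Zap70 rose by 0.37 under isotype antibody and fell by 0.13 (adjusted p = 0.0842) under MHC II block, where it stood at 261 to 275 CPM with PBS and at 232 to 265 CPM with WT IL-2, with a difference between the arms of 0.51 (SE 0.08, adjusted p = 0.000146). Cd3d rose by 0.61 against 0.07 (adjusted p = 0.494), a difference of 0.54 (adjusted p = 0.000693), and Foxp3 by 0.43 against -0.03 (adjusted p = 0.733), a difference of 0.46 (adjusted p = 0.000317). Of 13 suppressor molecules 7 responded more and 1 less: Ctla4 rose by 0.53 against 0.00 (difference 0.53, adjusted p = 0.00883), and Il10 rose in both arms, by 2.14 and by 1.31, with a difference of 0.83 (adjusted p = 0.00657). For Gzmb, which rose by 3.03 and 3.22, no difference was called (-0.19, SE 0.37, adjusted p = 0.787).

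Other lists split in the same comparison. More positive responses under isotype antibody were called for 6 of 12 receptors of the TNF receptor superfamily, with 2 less positive, for 8 of 20 genes of glycolysis, with 1 less positive, and for 5 of 8 GIMAP GTPases, or 3 without MHC II block WT 1, with none less positive. No difference was called for any of 21 mitotic genes, 49 oxidative phosphorylation subunits or 14 naive genes, and 3 of 26 ribosome biogenesis genes were called, all less positive under isotype antibody. Without MHC II block WT 1 5 ribosome biogenesis genes were called, and without that library and isotype PBS 1 4 were, with 3 oxidative phosphorylation subunits more positive and 1 naive gene less positive. That a difference was not called does not show that the arms respond alike. The markers of other cells went the other way: 9 of 9 B cell, 5 of 5 plasma cell and 10 of 10 myeloid markers responded less under isotype antibody, as did 8 of 11 genes of cytotoxic granules and NK-type receptors. The median difference of the B cell markers between arms was -3.80, -2.41 without MHC II block WT 1 and -1.17 without that library and isotype PBS 1. Without both libraries these counts were 4, 5, 7 and 8, while for the TCR complex 10 more positive and 1 less positive responses were called. In the MHC II block arm WT library 1 held 589 CPM of myeloid markers and 158 CPM of neutrophil markers, against ranges from 44.1 to 96.1 CPM and from 3.88 to 26.8 CPM in the other 3 WT libraries of that arm and from 29.1 to 46 CPM and from 0.994 to 8.96 CPM in its PBS libraries.

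Of the genes that averaged over 5 CPM in the 16 libraries of both arms, the 5 with the largest gain under isotype antibody were Slc24a3, Vdr, Zan, Lag3 and Angptl2. Slc24a3 and Vdr passed that mean only through the isotype WT libraries, where they were high. Zan stood at 18.9, 15.5, 17.5 and 21.6 CPM in the isotype WT libraries, at 5.12 to 6.66 CPM in the isotype PBS libraries, and at 7.9 to 10.5 CPM with WT IL-2 and 7.52 to 9.55 CPM with PBS under MHC II block (difference 1.53, SE 0.18, adjusted p = 4.38e-06). Angptl2, a secreted angiopoietin-like protein, rose to 112 to 152 CPM from 40.5 to 50.5 CPM under isotype antibody, and stood at 53.4 to 76.7 CPM against 49.1 to 59.4 CPM under MHC II block (difference 1.33, SE 0.15, adjusted p = 2.32e-06). The other three leaned on WT 2: Vdr, the vitamin D receptor, stood at 23.4 CPM in WT 2 and at 6.32 to 9.68 CPM in the other WT libraries, and its difference of 1.65 was 1.09 without WT 2 (adjusted p = 0.0595), as Slc24a3 went from 1.65 to 1.06 (adjusted p = 0.0794) and Lag3 from 1.51 to 1.19 (adjusted p = 0.0012). The 5 largest losses above the same level, C1qc, C1qb, Csf3r, Slc40a1 and S100a9, genes of macrophages and neutrophils, were high in MHC II block WT 1 and in isotype PBS 1, and without both libraries no difference was called for C1qc (adjusted p = 0.651), C1qb (0.962) and Slc40a1 (0.627), while Csf3r (-4.08, adjusted p = 0.0112) and S100a9 (-4.32, adjusted p = 0.0396) were still called. All 5 passed the mean of 5 CPM only through MHC II block WT 1.

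**Figure D5:**
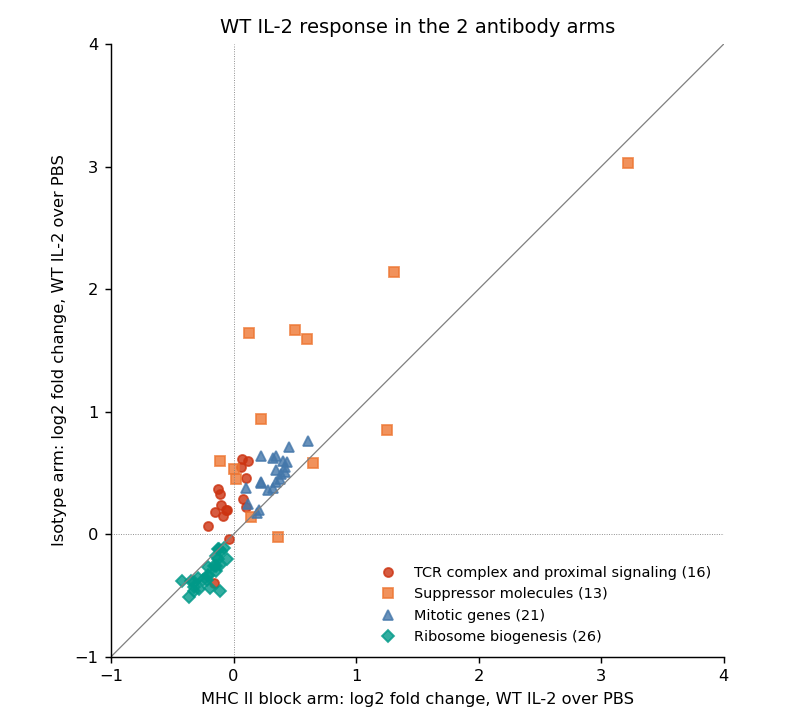
Log2 response to WT IL-2 under MHC II block (horizontal axis) and under isotype antibody (vertical axis) for the members of 4 lists, 1 point per gene, with the line of equal responses. Of the 16 TCR complex genes 12 responded more under isotype antibody, no difference was called for the 21 mitotic genes, and 25 and 23 of the 26 ribosome biogenesis genes fell in the isotype and the MHC II block arm.

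Compared directly with WT IL-2 under isotype antibody, the muteins differed for part of the tested genes: H16R for 2309 genes, 18.6%, and 3x for 4296, 34.7%. These comparisons share the WT libraries with each other and with the comparison of WT and PBS, so their values are given side by side and their overlap is not read. Gzmb was higher still with both muteins, at 184, 164, 252 and 111 CPM with H16R and at 301, 171, 216 and 248 CPM with 3x, against 55.3 to 112 CPM with WT IL-2 (differences from WT of 1.01, adjusted p = 0.00404, and 1.41, adjusted p = 4.26e-05). Amotl1, an angiomotin, stood at 0.457 to 0.898 CPM with PBS, 4.47 to 6.03 CPM with WT IL-2, 7.48 to 14.1 CPM with H16R and 18.9 to 24.1 CPM with 3x. Drc1 stood at 2.57 to 3.31 CPM with PBS, 1.16 to 2.07 CPM with WT IL-2, 2.21 to 4.4 CPM with H16R and 14.7 to 43.8 CPM with 3x. The groups of Amotl1 followed each other without overlap, and the interferon-induced Ifitm1 and Ifitm3 were likewise higher with both muteins than with WT IL-2 (1.52 and 1.22 with H16R, 2.19 and 1.40 with 3x).

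Other genes were lower with both muteins than with WT IL-2. Il1r2, the decoy receptor for IL-1, was lower with both muteins than with WT IL-2 (-1.70, adjusted p = 0.00184, and -2.51, adjusted p = 9.52e-06), and WT 2 held 48.4 CPM of it against 13.8 to 23.7 CPM in the other WT libraries. Slpi, a secreted protease inhibitor, stood at 7.50 to 16.1 CPM with WT IL-2, 2.28 to 5.07 CPM with H16R and 0.839 to 1.25 CPM with 3x (-1.66 and -3.57), and the amino acid transporter gene Slc7a10 at 6.92 to 9.7 CPM, 2.23 to 4.87 CPM and 2.43 to 4.66 CPM (-1.18 and -1.30). Hspa1a and Hspa1b, nearly identical genes whose reads the counting could split, so that each value is uncertain, were lower with both muteins as well, and their WT libraries spread from 26.6 to 152 CPM and from 49 to 230 CPM. Mki67 stood at 231 to 303 CPM with H16R (0.18 from WT, adjusted p = 0.428) and at 328 to 505 CPM with 3x (0.71, adjusted p = 0.000269), against 202 to 302 CPM with WT IL-2. Zap70 did not pass the test against H16R (-0.14, adjusted p = 0.11) and was lower with 3x than with WT IL-2 (-0.38, adjusted p = 2.29e-05), at 232 to 262 CPM, against 233 to 267 CPM in the PBS libraries. Leaving out WT 2 brought the number of genes called between H16R and WT to 1516, leaving out WT 3b to 1569, and leaving out H16R 3 to 907.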

How the data were processed

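RNA was sequenced as paired reads from stranded poly-A libraries. The authors aligned reads with OSA in Omicsoft Array Suite to mouse B38 and deposited expected counts, estimated per gene with the Omicsoft RSEM, and FPKM values computed from them. Tables of DESeq2 (1.30.1) comparisons, which the authors deposited too, hold log2 fold changes, p-values and test scores and were not used. Of 53345 genes, 96.58% had a name in GENCODE vM21 (GRCm38), the source of positions, biotypes and lengths. Columns were mapped to samples by the sample descriptions.

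Expected counts were rounded. Protein-coding genes above 0.5 CPM in at least 4 of the 32 Treg libraries, and with no empty cell, were kept. All 8 Treg groups entered 1 edgeR (4.0.16, R 4.3.3) quasi-likelihood fit with TMM scaling, with no other covariate, and the contrasts were WT minus PBS under isotype antibody, the difference of that response from the one under MHC II block, and each mutein minus WT. Counts were simulated for the 32 Treg libraries from the mean of each of 12390 genes over all of them and from the library sizes. In the isotype WT libraries 100 genes were changed by 0.5 log2 units and 100 by 1.0, up or down. Of these 69% and 93% were recovered, and 10% of calls were false. Far fewer genes were changed than were called in the data, so these rates need not hold there. PBS 4 had more empty cells than the other libraries: 29 coding genes were left out for an empty cell, most of them empty in PBS 4 alone. No pair of replicates agreed within sampling noise, and each library was counted as 1 sample, since the methods of the study give each mouse a sample of its own.

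Genes named in the text are the 10 largest rises and falls among called genes with a mean above 5 CPM and groups without overlap, from each of 39 lists the first 3 genes and up to 2 called members with the largest change each way, the 5 largest differences each way between antibody arms with a mean above 5 CPM over their 16 libraries, and the 5 genes each way with the largest smaller difference from WT with both muteins and a mean above 5 CPM over the 3 groups. Others are said to be chosen afterwards. Some genes and 1 list named by this rule are not reported here. The members and the lists were chosen with earlier results of these data known. Alternatives were RLE scaling, total counts, no CPM filter, all biotypes, empty cells as 0, DESeq2 (1.42.0), a fit of the compared groups alone, a replicate block, each library left out, thinning to the smallest library, and limma (3.58.1) on log2(FPKM + 1) and log2(FPKM + 0.1) of the deposited FPKM. Removing the length trend and removing doubted libraries together were added after seeing the data. Promoters are from RefSeq (GRCm38.p6).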

Additional observations from a re-analysis of the deposited data

Results flagged for a closer look

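In each group of 4 libraries, a library was set apart where its gap to the nearest other library, over the range of the group, was above Dixon's 95% critical value for 4 samples. This held for 60 of 522 groups of values, and most of the 60 came from isotype PBS 1 and MHC II block WT 1. Many of the groups are of genes named for large differences, and they share libraries. No rate expected by chance is therefore set beside this count.

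Isotype PBS 1 stood apart as the highest PBS library for the B cell genes Pax5 (104 CPM), Spib (45.5), Siglecg (43.3), Ms4a1 (72.4), Cd79a (149) and Fcer2a (54.3), and for the B cell marker sum (877). The same held for Scd1 (82.8 CPM), Chst3 (42.3) and Lrrk2 (36.6), for the macrophage, monocyte and neutrophil genes Lyz2 (38.6), Csf1r (23.7), Itgam (8.91), S100a8 (8.14), C1qc (7.11), C1qb (6.4), Slc40a1 (15.8) and Vcam1 (18.6), and for Cd8a (5.74), Ccnd1 (8.06) and Hk2 (23.6). PBS 1 was lowest for Cd160 (22.3 CPM) and Ncr1 (5.37). PBS 4 was lowest for S100a6 (27.8 CPM), Socs1 (25.6), Itgb7 (601) and Lgals1 (92.6) and highest for Itgae (101), Rel (644) and Ddx21 (366). PBS 2 was lowest for Ccr7 (391 CPM) and PBS 3 highest for Dusp5 (280).

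Among the isotype WT libraries, WT 2 was highest for Pim1 (1910 CPM), Icos (502), Slc16a3 (25.0), Gzmk (1.62) and Slc24a3 (26.2) and lowest for Il9r (35.0) and Amotl1 (4.47). WT 1 was highest for E2f2 (92.8 CPM), WT 3a for Cd180 (3.29), Clec9a (0.534) and Csf3r (1.13), and WT 3b lowest for Orai1 (43.2) and Cd3e (320). Under MHC II block, WT 1 was highest for S100a9 (99.1 CPM), C1qc (79.0), C1qb (71.0), Csf3r (56.4) and Slc40a1 (114) and for the marker sums of B cells (761), myeloid cells (589), neutrophils (158) and CD8 T and NK cells (113), and lowest for the conventional CD4 sum (289). PBS 3 of that arm was highest for S100a9 (3.36 CPM) and Csf3r (1.72). H16R 3 was highest for Ifitm1 (12.7 CPM) and 3x 3 for Slpi (1.25).

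The response to WT IL-2 differed between the antibody arms for 2434 genes by the interaction test in edgeR. Among the genes named for the largest changes or the largest arm differences, it was larger under isotype antibody by 2.34 log2 units for Nos1, 1.79 for Fam20a, 1.65 for Slc24a3, 1.65 for Vdr, 1.53 for Zan, 1.51 for Lag3, 1.33 for Angptl2, 0.99 for Tmprss13, 0.95 for Itga7, 0.93 for S100a6 and 0.83 for Il10. It was less positive for Prg2 (-1.95), Pax5 (-4.72), Scd1 (-5.21), Chst3 (-4.28), Bcl11a (-3.38), Cd180 (-3.89), Spib (-4.02), Siglecg (-4.03), Lrrk2 (-3.55), C1qc (-11.01), C1qb (-10.79), Csf3r (-8.31), Slc40a1 (-7.89) and S100a9 (-7.87). Most of these lower values depended on MHC II block WT 1 and isotype PBS 1. Without MHC II block WT 1 the difference was -2.37 for Pax5, which was then not called, -3.32 for Scd1, -2.64 for Chst3, -2.48 for Spib, -2.49 for Siglecg, -6.33 for C1qc, -5.96 for C1qb, -4.96 for Csf3r and -3.87 for Slc40a1. Without isotype PBS 1 C1qc (-6.06), C1qb (-5.07) and Slc40a1 (-4.73) were not called. Without both libraries Pax5 (-1.00), Chst3 (-1.31), Spib (-1.34), C1qc (-1.39), C1qb (-0.25) and Slc40a1 (-0.73) were not called, and Scd1 (-1.73), Bcl11a (-1.33), Cd180 (-2.05), Siglecg (-1.47), Lrrk2 (-1.34), Prg2 (-1.71), Csf3r (-4.08) and S100a9 (-4.32) were. Without isotype WT 2 Slc24a3 and Vdr differed by 1.06 and 1.09.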

How the results depend on the processing

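Of 209 genes named for the response or from the lists, 177 were called and 140 of these kept their call in all 21 alternatives run on this comparison. No direction reversed, 160 of 4388 alternative values lost a call and 32 gained one. The number of genes called was 6468 and ranged from 5833 to 6265 with 1 library left out, 2943 to 3267 higher and 2890 to 3085 lower. Leaving out PBS 1 and 4 gave 5417, and fitting the 8 libraries alone 5095. With total counts in place of TMM 2765 rose and 3788 fell. The number changed 2-fold or more, 694, was 1082 without the CPM filter, 140 with limma on log2(FPKM + 1), where the pseudocount shrinks low genes, 446 with log2(FPKM + 0.1), and 605 to 764 with 1 library left out. Its split of 236 rises and 458 falls was 70 and 70 with log2(FPKM + 1) and 256 and 349 without PBS 1. Falls outnumbered rises in every alternative but log2(FPKM + 1). The interaction count of 2434 ranged from 1994 to 2639 with 1 library left out, and its split of 989 and 1445 was 1240 and 1201 with log2(FPKM + 1). The count of 2309 for H16R against WT ranged from 907 (without H16R 3) to 2394, with 1516 without WT 2, and its split of 1099 and 1210 was 685 and 1601 with total counts. The cause was not tested. For 3x it ranged from 3382 to 4197, and with log2(FPKM + 0.1) the split of 2098 and 2198 was 1479 and 2423. Of the 31 pathway lists 21 had more higher than lower calls, and 20 to 22 with 1 library left out. PBS and WT mice with the same number are different animals. Deviations of libraries with the same number correlated by 0.142, 0.0288, -0.130 and 0.134, and those of other pairs by -0.293 to 0.264. These values do not settle whether the numbers mark a pairing. With a replicate block 6264 genes were called, 661 of them 2-fold or more, the interaction count was 2195 and the counts for H16R and 3x were 2341 and 4242. Thinning every library to the smallest left 5934 genes called, and differences of genes under about 1 CPM rest on few reads.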
